A study of Mus musculus with 6 samples.

Results

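The genes described here are 10 mouse genes for antimicrobial peptides, S100 alarmins and related skin defence proteins, taken by symbol from a table of 55367 gene names, namely *S100a8*, *S100a9*, *S100a7a*, *Defb14*, *Defb1*, *Slpi*, *Lcn2*, *Pglyrp3*, *Pglyrp4* and *Camp*. They were measured by RNA sequencing in primary keratinocytes, the epidermal cells grown directly from mouse skin, of the genotype Ppp1r13l flox/flox;Cre+ERT on a mixed C57BL/6 and 129/Sv background. *Ppp1r13l* encodes iASPP, and tamoxifen activates the Cre recombinase that deletes part of it. From each of 3 batches came 1 culture given tamoxifen (iASPP KO) and 1 left without it (iASPP WT), which gave 6 libraries in 3 pairs. The medium, with or without tamoxifen, was changed 24 h after plating, in low calcium on collagen, and the labels give 1 mM tamoxifen where the study's methods give a micromolar concentration. All 6 cultures carried the floxed alleles and the recombinase. Since the iASPP-WT cultures had no tamoxifen, the deletion and the drug cannot be told apart. The recombinase was made from a general locus and not from a keratinocyte promoter, so other cells in the cultures carried it too.

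The iASPP-KO libraries of batches 1, 2 and 3 held 24544822, 23556669 and 22136525 counts, and the iASPP-WT libraries 21353368, 25157117 and 20202517. A level is given as CPM, which is counts relative to the library total after edgeR's TMM scaling, and 3 counts corresponded to 0.123 to 0.141 CPM in these libraries. A difference between conditions is a log2 fold change, positive where iASPP KO was higher, with its standard error (SE), from a fit of all 14916 genes with enough counts that holds batch and condition as terms. A gene passed at an adjusted p under 0.05. Of the 10 genes, 9 had enough counts to be tested.

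Epidermal keratinocytes form a chemical as well as a physical barrier. S100A8 and S100A9 pair to form calprotectin, which withholds metal ions from microbes and signals damage to neighbouring cells, and beta-defensins are small cationic peptides that disrupt microbial membranes. Keratinocytes make many of these proteins at low levels in resting skin and at high levels in wounds and in inflamed skin.

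The targeted gene was examined first. *Ppp1r13l* (chr7:19359749-19378533, GRCm38) had 14.3, 17.7 and 5.91 CPM in batches 1, 2 and 3 of iASPP KO and 32.7, 45.1 and 21.0 CPM in the iASPP-WT cultures. Every iASPP-KO culture lay below every iASPP-WT culture, in the direction of the labels. The log2 fold change was −1.45 (SE 0.18, adjusted p = 0.0030, edgeR quasi-likelihood with Benjamini-Hochberg adjustment). Counts were per gene, so transcripts without the deleted exon and undeleted alleles cannot be told apart in the remaining level.

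The alarmin genes *S100a8* (chr3:90668978-90670035, + strand), *S100a9* (chr3:90692632-90695721, − strand) and *S100a7a* (chr3:90654017-90658669, + strand) lie close together on chromosome 3, and their levels were all higher in iASPP KO. *S100a8* had 267, 425 and 177 CPM in batches 1, 2 and 3 of iASPP KO, and 56.4, 157 and 36.7 CPM in the iASPP-WT cultures. The lowest iASPP-KO culture, that of batch 3, lay just above the highest iASPP-WT culture, that of batch 2. The log2 fold change was 1.98 (SE 0.17, adjusted p = 0.0011, edgeR quasi-likelihood with Benjamini-Hochberg adjustment), a 3.94-fold rise. *S100a9*, the partner of *S100a8*, had 335, 560 and 232 CPM in iASPP KO and 60.9, 216 and 58.8 CPM in iASPP WT. Batch 2 was again highest in both conditions, and the conditions did not overlap. Its log2 fold change was 1.93 (SE 0.18, adjusted p = 0.0011 in the same edgeR fit).

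*S100a7a*, the mouse relative of the psoriasin gene, was less abundant. It had 53.5, 106 and 5.91 CPM in batches 1, 2 and 3 of iASPP KO and 12.6, 22.1 and 2.45 CPM in the iASPP-WT cultures. The iASPP-KO culture of batch 3 lay below the iASPP-WT cultures of batches 1 and 2, so the conditions overlapped although iASPP KO was higher in each batch. Within the fit the log2 fold change was 1.95 (SE 0.20, adjusted p = 0.0012, edgeR quasi-likelihood with Benjamini-Hochberg adjustment). Of the stretches of read length in its longest transcript, 7.51% also occur in transcripts of other genes, and reads from these cannot be placed with certainty. None of the stretches in the longest transcripts of the other 9 genes did. Exons found only in other transcripts of a gene were not searched.

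**Figure D1:**
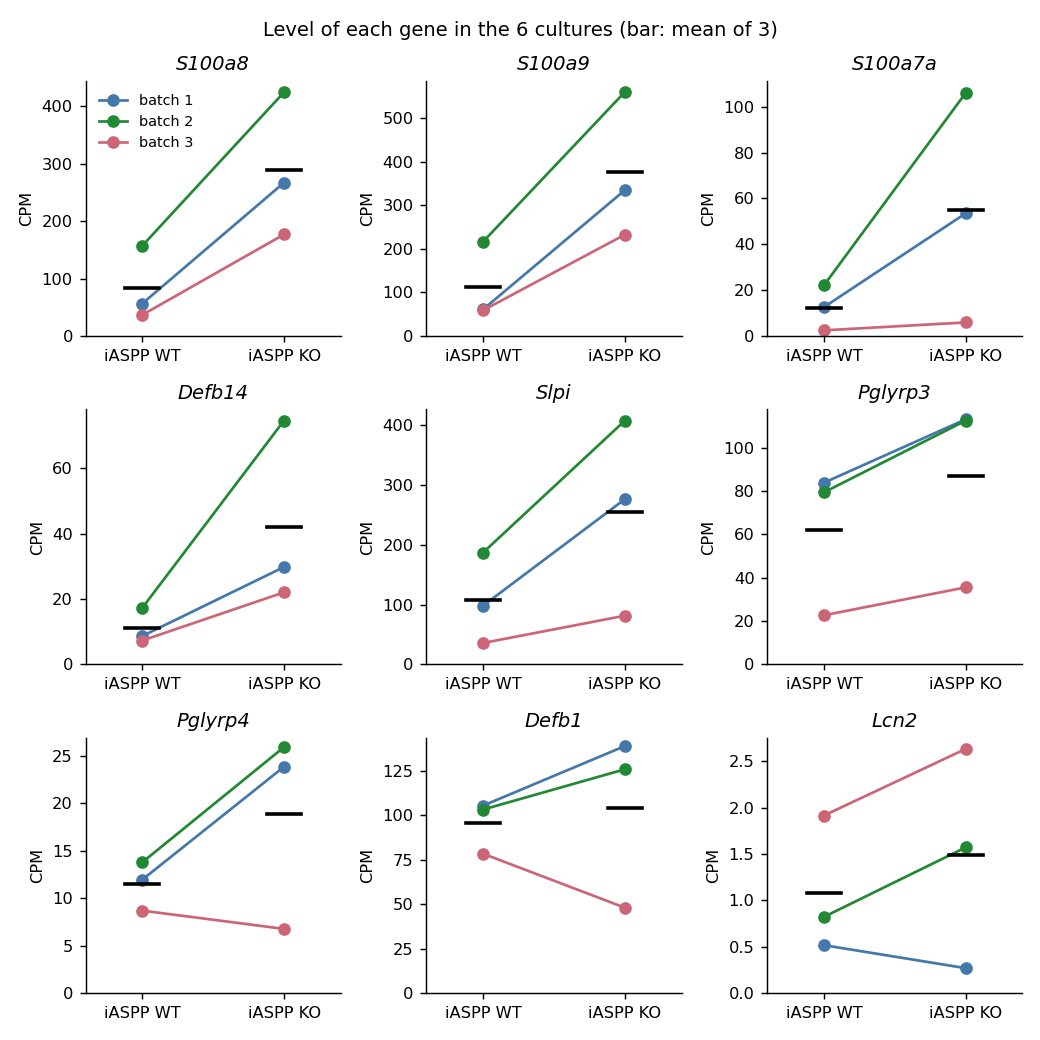
Level of 9 of the 10 genes in CPM (vertical axis, from 0) in the iASPP-WT and iASPP-KO cultures, with a line joining the cultures of a batch and a black bar at the mean of 3. For *S100a8*, *S100a9* and *Defb14* every iASPP-KO point lies above every iASPP-WT point, and for *Pglyrp4* and *Defb1* the line of batch 3 slopes down. *Camp* is not drawn because it had no counts.

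The promoters of *S100a8*, *S100a9*, *S100a7a* and *Slpi* are shown because these genes passed together and had an entry among the RefSeq promoters (GRCm38.p6), which 6 of the 10 genes had. Each runs 5′ to 3′ on the gene's strand, from 250 bases before the RefSeq start to 50 after it. The intervals are chr3:90668821-90669120 (+), chr3:90695672-90695971 (−), chr3:90654052-90654351 (+) and chr2:164356458-164356757 (−). Those of *S100a7a* and *Slpi*, like that of *Lcn2* (not shown), lie wholly inside the gene intervals used for counting. The outermost annotated starts of these genes are further upstream and were not searched. Capitals mark TATAAA, the core of a TATA box, and TTGCNNAA, a core bound by C/EBP factors, searched on both strands.
S100a8 promoter: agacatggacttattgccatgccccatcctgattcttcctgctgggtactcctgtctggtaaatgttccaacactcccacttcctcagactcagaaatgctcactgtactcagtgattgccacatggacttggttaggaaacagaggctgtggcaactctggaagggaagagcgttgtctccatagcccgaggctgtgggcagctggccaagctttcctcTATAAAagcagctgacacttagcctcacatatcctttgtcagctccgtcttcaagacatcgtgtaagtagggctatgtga
S100a9 promoter: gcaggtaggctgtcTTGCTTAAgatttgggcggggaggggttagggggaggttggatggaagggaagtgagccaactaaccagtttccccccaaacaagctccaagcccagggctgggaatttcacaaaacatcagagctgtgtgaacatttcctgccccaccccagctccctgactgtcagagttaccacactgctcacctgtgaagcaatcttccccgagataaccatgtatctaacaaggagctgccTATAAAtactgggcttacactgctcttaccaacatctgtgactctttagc
S100a7a promoter: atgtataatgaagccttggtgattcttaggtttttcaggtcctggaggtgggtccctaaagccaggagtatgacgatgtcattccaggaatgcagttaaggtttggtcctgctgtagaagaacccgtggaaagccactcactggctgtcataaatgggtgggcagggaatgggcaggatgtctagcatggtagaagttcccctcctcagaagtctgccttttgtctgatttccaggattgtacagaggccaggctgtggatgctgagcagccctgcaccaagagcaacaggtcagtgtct
Slpi promoter: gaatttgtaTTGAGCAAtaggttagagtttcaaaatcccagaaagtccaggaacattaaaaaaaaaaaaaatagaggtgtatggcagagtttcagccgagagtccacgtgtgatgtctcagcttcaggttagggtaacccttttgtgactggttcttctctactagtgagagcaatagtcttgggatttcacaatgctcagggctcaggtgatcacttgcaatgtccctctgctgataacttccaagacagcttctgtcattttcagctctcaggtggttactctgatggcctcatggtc
TATAAA began 30 bases before the start in *S100a8* and at the first transcribed base in *S100a9*, and 13.6% of all 32851 promoters hold it. TTGCNNAA was in *S100a9*, *Slpi* and *Lcn2*, and in 10.8% of all promoters. The AP-1 motif TGANTCA was in none of the 6 promoters, against 7.81% of all. The NF-κB consensus was in that of *Camp* alone, against 8.46% of all. No matches overlapped. A match is a description of letters in this window, and binding was not measured. Sites outside the window were not searched. The study reports AP-1 motifs in an enhancer region of *S100a7a*, *S100a8* and *S100a9* that the transcription factor p63 binds.

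The beta-defensin genes differed from each other. *Defb14* (chr8:19194357-19195212, + strand), which encodes the mouse counterpart of human beta-defensin 3, had 29.8, 74.6 and 22.1 CPM in batches 1, 2 and 3 of iASPP KO and 8.67, 17.3 and 7.30 CPM in iASPP WT. The conditions did not overlap. Its log2 fold change was 1.84 (SE 0.17, adjusted p = 0.0011, edgeR quasi-likelihood with Benjamini-Hochberg adjustment). *Defb1* (chr8:21776599-21795185, + strand), the defensin gene that epithelia express without stimulation, had 139, 126 and 48.0 CPM in iASPP KO and 106, 103 and 78.4 CPM in iASPP WT. Batches 1 and 2 were higher in iASPP KO and batch 3 was lower. The log2 fold change was 3.9e-04 with a 95% interval from −0.46 to 0.46, and did not pass (adjusted p = 1.00 in the same edgeR fit). Its sign depended on which batch was left out.

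*Slpi* (chr2:164354070-164389095, − strand) encodes a secreted inhibitor of neutrophil elastase that also acts on bacteria. It had 276, 407 and 81.4 CPM in batches 1, 2 and 3 of iASPP KO and 98.1, 187 and 35.8 CPM in the iASPP-WT cultures. Batch 3 was lowest in both conditions, and its iASPP-KO culture lay below the iASPP-WT cultures of batches 1 and 2. Its log2 fold change was 1.27 (SE 0.12, adjusted p = 0.0011, edgeR quasi-likelihood with Benjamini-Hochberg adjustment). Its annotated exons share bases with those of *Mir7678* on the same strand.

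*Lcn2* (chr2:32384633-32388252, − strand), whose product lipocalin-2 captures the iron carriers of bacteria, was near the limit of these libraries, with 6, 35 and 62 counts across batches 1, 2 and 3 of iASPP KO and 11, 20 and 43 counts in iASPP WT. Its log2 fold change of 0.23 had a 95% interval from −1.498 to 1.96 and did not pass (adjusted p = 0.92, edgeR quasi-likelihood with Benjamini-Hochberg adjustment). A change of the size seen for *Slpi* lies within this interval. *Camp* (chr9:109847379-109849617, − strand), which encodes the cathelicidin precursor, had 0 counts in all 6 libraries, which allows up to 0.123 to 0.141 CPM, by counting error only.

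The peptidoglycan recognition proteins bind bacterial cell walls. *Pglyrp3* (chr3:92014583-92031582, + strand) had 113, 113 and 35.6 CPM in batches 1, 2 and 3 of iASPP KO and 83.8, 79.4 and 22.7 CPM in the iASPP-WT cultures. It was higher in iASPP KO in each batch, and the low levels of batch 3 made the conditions overlap. This gave a log2 fold change of 0.53 (SE 0.12, adjusted p = 0.036, edgeR quasi-likelihood with Benjamini-Hochberg adjustment). It did not pass without batch 1 (adjusted p = 0.118) or without batch 2 (adjusted p = 0.206), and over all alternatives the adjusted p ran from 0.0063 to 0.979. *Pglyrp4* (chr3:90726906-90741517, + strand) had 23.9, 25.9 and 6.76 CPM in iASPP KO and 11.9, 13.8 and 8.69 CPM in iASPP WT. Its level was higher in iASPP KO in batches 1 and 2 and lower in batch 3. The log2 fold change of 0.54 (SE 0.27) did not pass (adjusted p = 0.36 in the same edgeR fit), and without batch 3 it was 0.95 and passed (adjusted p = 4.2e-04), in a range of 4.2e-04 to 0.973 over all alternatives.

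Across the 10 genes, 6 of the 9 tested passed as higher in iASPP KO and none as lower. Over all 14916 tested genes 323 passed as higher (2.17%) and 291 as lower (1.95%). The median log2 fold change was 1.27 over the 9 tested genes and 0.01 over all tested genes. The same 6 genes, *S100a8*, *S100a9*, *S100a7a*, *Defb14*, *Slpi* and *Pglyrp3*, were higher in iASPP KO in each of the 3 batches, as were 19.5% of all tested genes. In 3 of them, *S100a8*, *S100a9* and *Defb14*, the conditions did not overlap, as in 5.26% of all tested genes with iASPP KO above. Without the batch term, none of the 9 genes and no gene at all passed by edgeR, while 3 of the 9, and 360 higher and 331 lower genes of all tested, had an unadjusted p under 0.05. The log2 fold changes of the 6 genes stayed about as large without it. They were 1.80 for *S100a8*, 1.75 for *S100a9*, 2.16 for *S100a7a*, 1.93 for *Defb14*, 1.25 for *Slpi* and 0.49 for *Pglyrp3*. DESeq2, which was run with the batch term, called 893 genes in all and 6 of the 9. With batch 1, 2 or 3 left out, edgeR called 320, 291 and 1455 genes in all, and 5, 5 and 7 of the 9.

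Scaled to length, as CPM per kilobase of exon, *S100a9* had the highest mean of the genes in both conditions, at 720 ± 321 (mean ± SD of 3 cultures) for iASPP KO and 215 ± 173 for iASPP WT. It was highest in each culture but the iASPP-WT culture of batch 1, where *Defb1* had 121 and *S100a9* 117. Batch 2 raised its iASPP-WT mean, with 117, 414 and 113 in batches 1, 2 and 3. *S100a8* had 417 ± 181 and 120 ± 93.0. In iASPP KO the next were *Slpi* at 216 ± 139 and *Defb14* at 207 ± 139, which did not differ beyond their spread. Their order also depends on the pooled exon lengths, 1180 bp for *Slpi* and only 204 bp for *Defb14*. *Defb1*, at 120 ± 56.5 and 110 ± 17.2, came after these in the iASPP-KO mean, though in batch 1 it was above *Defb14* (160 and 146). In iASPP WT it was above *S100a8* in batches 1 and 3 and below it in batch 2. For iASPP KO and then iASPP WT, *Pglyrp3* had 78.6 ± 40.3 and 56.0 ± 30.8, and *S100a7a* 40.0 ± 36.4 and 8.97 ± 7.12. *Pglyrp4* (7.96 ± 4.45 and 4.84 ± 1.09) and *Lcn2* (0.568 ± 0.452 and 0.413 ± 0.281) had the lowest means of the 9 tested genes. In the iASPP-WT culture of batch 3, however, *S100a7a* (1.78) was below *Pglyrp4* (3.67). The per-length level of *S100a9* was 1.43 to 2.13 times that of *S100a8* in the 6 libraries, with both ends of this range in iASPP-WT cultures. This ratio depends on the lengths used, 522 bp for *S100a9* and 694 bp for *S100a8*, which pool the exons of all annotated transcripts. In CPM, without scaling to length, the ratio was 1.08 to 1.61.

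The level without tamoxifen differed between batches. Among iASPP-WT cultures, the highest batch had 4.28 times the level of the lowest for *S100a8*, 3.68 times for *S100a9*, 9.01 times for *S100a7a* and 5.22 times for *Slpi*. *Defb14* spanned 2.36-fold, *Pglyrp3* 3.70-fold, *Pglyrp4* 1.59-fold, *Defb1* 1.35-fold and *Lcn2* 3.72-fold. Batch 3 was lowest and batch 2 highest for *S100a8*, *S100a9*, *S100a7a*, *Defb14*, *Slpi* and *Pglyrp4*, whereas *Lcn2* was highest in batch 3. Among iASPP-KO cultures the span was 2.40-fold for *S100a8*, 2.41-fold for *S100a9*, 17.9-fold for *S100a7a* and 5.00-fold for *Slpi*. It was 3.38-fold for *Defb14*, 3.18-fold for *Pglyrp3*, 3.84-fold for *Pglyrp4*, 2.90-fold for *Defb1* and 9.86-fold for *Lcn2*.

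The batches were then compared with condition held in the fit. From batch 1 to batch 2, *S100a9* rose by 1.28 on the log2 scale (SE 0.22, adjusted p = 0.0399, edgeR quasi-likelihood with Benjamini-Hochberg adjustment) and *Defb14* by 1.17 (SE 0.21, adjusted p = 0.0453). These were 2 of the 9 genes, and 0.168% of all tested genes (25) passed as higher and 48 as lower. *S100a8* (1.09, adjusted p = 0.0519) and *Slpi* (0.74, adjusted p = 0.0677) fell just short in the same edgeR fit. These calls depended on single libraries. *S100a9* did not pass with robust dispersion (adjusted p = 0.0579) or without the iASPP-WT library of batch 1 (0.380) or batch 2 (0.246). *Defb14* did not pass without either of these (0.268 and 0.0702) or without the iASPP-KO library of batch 1 (0.353) or batch 2 (0.687). The count was 0 without the iASPP-WT library of batch 1 or of batch 2, 1 without the iASPP-KO library of batch 1 and 5 without either library of batch 3. The count over all genes, 73, was 681 without the iASPP-KO library of batch 3 and 674 without its iASPP-WT library. It was 29 and 35 without the iASPP-KO library of batch 1 or 2, and 43 without the iASPP-WT library of batch 1.

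Batch 3 was then compared with the other batches. Against batch 1, 4 of the 9 genes passed as lower, as did 8.4% of all tested genes. They were *S100a7a* (−2.81, SE 0.26, adjusted p = 1.6e-04, edgeR quasi-likelihood with Benjamini-Hochberg adjustment), *Pglyrp3* (−1.78), *Slpi* (−1.61) and *Defb1* (−0.95). The value of *Defb1* was −0.46 without the iASPP-KO library of batch 3 and −1.51 without its iASPP-WT library. Without the iASPP-KO library of batch 1 it was −0.65, and *Defb1* did not pass. *Pglyrp4* (−1.10, adjusted p = 0.0559), *S100a8* (−0.61, 0.0720), *Defb14* (−0.34, 0.322) and *S100a9* (−0.31, 0.386) did not pass, nor did *Lcn2*, which was higher in batch 3 (2.48, 0.123). Against batch 2, 8 of the 9 passed as lower, as did 10.1% of all tested genes. *S100a7a* differed most (−3.72, SE 0.26, adjusted p = 2.8e-05 in the same edgeR fit), followed by *Slpi* (−2.35), *Pglyrp3* (−1.73), *S100a8* (−1.69), *S100a9* (−1.60), *Defb14* (−1.51), *Pglyrp4* (−1.26) and *Defb1* (−0.86). *Lcn2* had a positive value here too, 0.94, and did not pass. Without the iASPP-KO library of batch 3, *Pglyrp4* had −0.65 and *Defb1* −0.37, and without its iASPP-WT library −1.96 and −1.42. Without the iASPP-KO library of batch 2 they had −0.98 and −0.65. Neither gene passed without either of these iASPP-KO libraries. *Defb1* did not pass with robust dispersion either (adjusted p = 0.0554 by edgeR). Over all genes, 784 were higher and 1253 lower in batch 3 than in batch 1, or 1105 and 1076 with upper-quartile scaling. Against batch 2 the counts were 1103 and 1500, or 1399 and 1327 with upper-quartile scaling, which called the same number of the defence genes, 4 and 8. Between batches 3 and 1, the 2037 called genes fell to 856 without the iASPP-KO library of batch 1 and to 930 without its iASPP-WT library. Between batches 3 and 2, 2603 fell to 1289 and 1149 without the iASPP-KO or the iASPP-WT library of batch 2. Leaving out 1 library gave 3 to 6 of the defence genes against batch 1 and 6 to 8 against batch 2, with *S100a7a*, *Slpi* and *Pglyrp3* called each time.

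**Figure D2:**
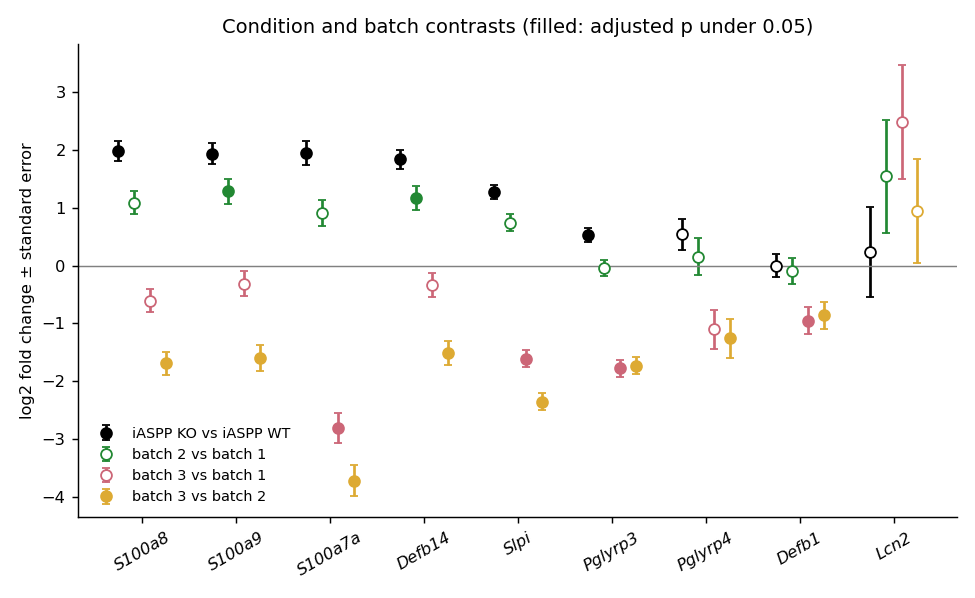
Log2 fold change (vertical axis) of the 9 tested genes for iASPP KO against iASPP WT and for the 3 comparisons of batches, with bars of 1 standard error and filled points where the adjusted p was under 0.05. The points for batch 3 against batch 2 lie below 0 for each gene but *Lcn2*, and that of *S100a7a* is lowest at −3.72.

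Within a batch, the ratio of iASPP KO to iASPP WT rests on 1 culture each, so its exact binomial (Clopper-Pearson) 95% interval covers counting error only and not the spread between cultures. For *S100a8* the ratio was 4.74 (4.45 to 5.04) in batch 1, 2.704 (2.60 to 2.81) in batch 2 and 4.83 (4.48 to 5.21) in batch 3. *S100a9* had ratios of 5.50 (5.18 to 5.84), 2.59 (2.51 to 2.67) and 3.95 (3.72 to 4.20). Both genes had their lowest ratio in batch 2, whose iASPP-WT level, the divisor of the ratio, was highest. *Slpi* shared this order, while *S100a7a* and *Defb14*, also highest in batch 2 of iASPP WT, had their highest ratio there. *Pglyrp4*, highest there too, had its middle ratio in batch 2. *S100a7a* had its lowest ratio in batch 3, at 2.41 (1.75 to 3.36), against 4.26 and 4.80 in batches 1 and 2. *Defb14* had 3.44, 4.32 and 3.02, *Slpi* 2.81, 2.18 and 2.27, and *Pglyrp3* 1.35, 1.42 and 1.57. For *Defb1* the ratio was 1.32 (1.25 to 1.39) and 1.22 (1.16 to 1.29) in batches 1 and 2 and 0.612 (0.568 to 0.660) in batch 3. *Pglyrp4* had 1.998 and 1.88 in batches 1 and 2 and 0.778 (0.627 to 0.964) in batch 3. *Lcn2*, with few counts, had 0.519 (0.157 to 1.53), 1.92 (1.08 to 3.50) and 1.38 (0.917 to 2.08). Whether the effect of condition differed between batches was not tested, since each batch had 1 culture per condition.

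**Figure D3:**
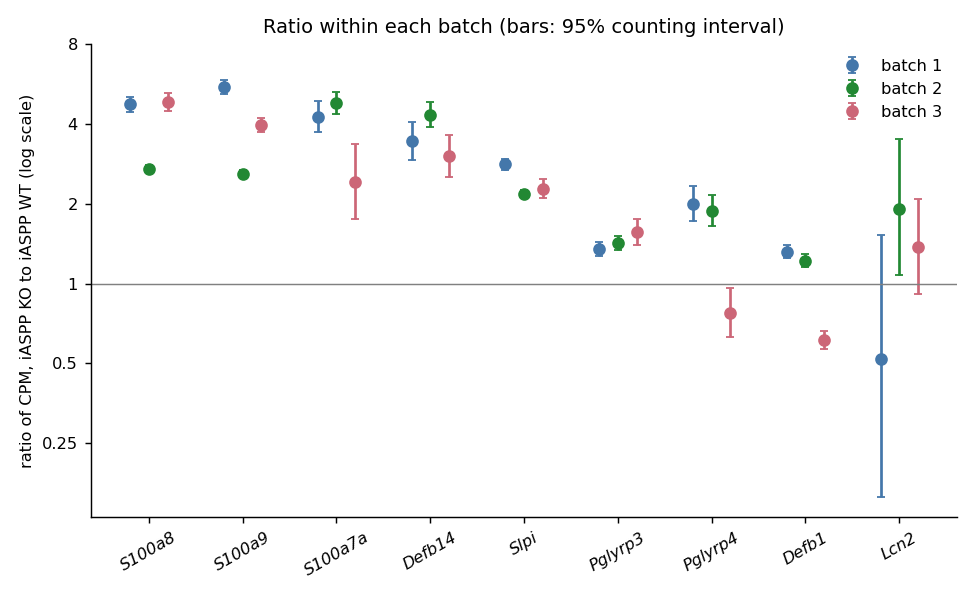
Ratio of CPM in iASPP KO to iASPP WT within each batch (vertical axis, log scale) for 9 genes, with exact 95% intervals for counting error. The ratios of *S100a8*, *S100a9*, *S100a7a*, *Defb14*, *Slpi* and *Pglyrp3* lie above 1 in all 3 batches, and those of *Pglyrp4* and *Defb1* lie below 1 in batch 3. That of *Lcn2* lies below 1 in batch 1, with an interval that spans 1.

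Profiles over the 6 libraries were compared by the root mean square difference of log2 CPM after each gene's mean was subtracted. Among the 9 genes, *S100a8* and *S100a9* were closest (0.17), followed by *Pglyrp4* and *Defb1* (0.31), *Defb14* and *S100a9* (0.32) and *Defb14* and *S100a8* (0.33). *S100a7a*, although their neighbour on the chromosome, was 1.04 from *S100a8*. The other tested genes closest to *S100a8* were *4930509H03Rik* (0.25), *Tchhl1* (0.28), *Pnldc1* (0.28) and *Tnfaip2* (0.31), of which only *Tchhl1* and *Tnfaip2* passed between conditions. The other 2 had at most 1.71 CPM in a library. Closest to *Slpi* were *Tfcp2l1* (0.17), *Dusp4* (0.17), *Slc7a11* (0.18) and *Hmox1* (0.19), all 4 of which passed as higher in iASPP KO. The profiles hold both conditions, so genes near *S100a8* or *Slpi* were picked partly for that difference.

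Of 50 other antimicrobial and acute-phase defence genes, 49 were in the table, 12 of them with 0 counts in every library, and 15 could be tested. A single gene passed as higher and none as lower, where 2.17% and 1.95% of all tested genes did, with a median log2 fold change of 0.82 against 0.01 over all tested genes. It was *Lgals3*, the galectin-3 gene and the most abundant of the list, with 810, 1040 and 547 CPM in batches 1, 2 and 3 of iASPP KO and 545, 755 and 433 CPM in iASPP WT. Its log2 fold change was 0.46 (SE 0.11, adjusted p = 0.0451, edgeR quasi-likelihood with Benjamini-Hochberg adjustment), and it did not pass without batch 1 or without batch 2 (highest adjusted p 0.272). *Saa3* and *Defb3* are named after their values were seen. *Saa3*, a serum amyloid A gene, had a log2 fold change of 1.34 (adjusted p = 0.0796 in the same edgeR fit). *Defb3* had 13, 28 and 40 counts in iASPP KO and 0, 1 and 4 counts in iASPP WT, and did not pass (adjusted p = 0.0998).

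Of 18 receptors and binding partners of these proteins, 11 could be tested and none passed in either direction, against 2.17% higher and 1.95% lower of all tested genes. Their median log2 fold change was 0.18. The most abundant was *Anxa2* (annexin A2), with 1524, 1418 and 1882 CPM in iASPP KO and 1776, 1662 and 2752 CPM in iASPP WT. *Tlr4*, a receptor for calprotectin, had 6.90, 7.497 and 3.23 CPM in iASPP KO and 3.05, 6.60 and 2.58 CPM in iASPP WT and did not pass (log2 fold change 0.56, adjusted p = 0.49, edgeR quasi-likelihood with Benjamini-Hochberg adjustment). *Fpr2* and *Ccr6* had 0 counts in all libraries.

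Of 42 regulators and processing enzymes of epidermal antimicrobial genes, 38 could be tested, 6 passed as higher and 1 as lower (2.17% and 1.95% of all tested genes), with a median log2 fold change of 0.11. *Nfkbia*, the NF-κB inhibitor that NF-κB itself induces, had 354, 533 and 248 CPM in iASPP KO and 203, 330 and 118 CPM in iASPP WT. Its log2 fold change was 0.85 (SE 0.12, adjusted p = 0.0043, edgeR quasi-likelihood with Benjamini-Hochberg adjustment). The transcription factor genes *Junb* (0.50) and *Cebpb* (0.54) passed too. So did *Klk7* (0.70) and *Klk8* (0.68), which encode kallikrein proteases, and *Spink5* (0.69), which encodes an inhibitor of such proteases and was the most abundant of the list. *Il1r1*, an interleukin-1 receptor gene, fell by 0.84 on the log2 scale (adjusted p = 0.0371). Without batch 2, *Nfkbia* was the only one of the 7 genes to pass, and without batch 1 *Nfkbia* and *Klk8* were. The highest adjusted p with a batch left out was 0.0160 for *Nfkbia*, 0.190 for *Junb*, 0.221 for *Cebpb*, 0.187 for *Klk7*, 0.240 for *Klk8*, 0.131 for *Spink5* and 0.231 for *Il1r1* in the same edgeR fit.

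The cultures were keratinocytes by their markers. The 10 keratinocyte markers summed to 30003, 27671 and 30500 CPM in batches 1, 2 and 3 of iASPP KO and 33564, 28589 and 29213 CPM in iASPP WT, with *Krt14* the most abundant, and none passed between conditions. Of 10 suprabasal markers, which mark cells that have begun to differentiate, *Sbsn*, the most abundant, passed as higher (0.67) and *Krt10* (−1.31) and *Flg* (−0.89) as lower. They summed to 3726, 2824 and 1054 CPM in iASPP KO and 3310, 2870 and 1144 CPM in iASPP WT. Batch 3 was thus lowest here, as for the summed level of the defence genes, though not for *Lcn2*. In bulk cultures, fewer cells of a type and less RNA per cell cannot be told apart. The part of suprabasal cells in the batch differences was not tested. *Sbsn* did not pass without batch 1 or without batch 2 (highest adjusted p 0.0568), nor did *Krt10* (0.161), which DESeq2 did not call either. *Flg* and *Krt10* did not pass with robust dispersion.

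*S100a8*, *S100a9* and *Camp* are also expressed by neutrophils. The 13 other neutrophil markers summed to 1.69, 3.50 and 8.07 CPM in iASPP KO and 2.16, 1.19 and 1.51 CPM in iASPP WT, with *Mmp8* the most abundant, and *Ly6g*, *Elane*, *Ctsg* and *Retnlg* had 0 counts. The 15 macrophage and leukocyte markers summed to 100.2, 97.8 and 128 CPM in iASPP KO and 83.2, 90.9 and 92.0 CPM in iASPP WT, with *Cd68* the most abundant and *C1qc* at 0. *Csf1r* passed as higher (1.11, adjusted p = 0.0206, edgeR quasi-likelihood with Benjamini-Hochberg adjustment), though not without batch 1 or without batch 2 (highest adjusted p 0.112). The part of neutrophils or other leukocytes in the levels of *S100a8* and *S100a9* was not tested.

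Fibroblast and melanocyte markers set batches apart. The 10 fibroblast markers summed to 67.4, 90.1 and 515 CPM in batches 1, 2 and 3 of iASPP KO and 77.6, 82.6 and 757 CPM in iASPP WT, with *Col1a2* the most abundant. *Col1a2* (−0.55) and *Col3a1* (−0.87) passed as lower in iASPP KO. *Col1a2* did not pass without any single batch (highest adjusted p 0.275, edgeR quasi-likelihood with Benjamini-Hochberg adjustment), nor *Col3a1* without batch 2 or without batch 3 (0.157). The 7 melanocyte markers, led by *Pmel*, summed to 899, 434 and 1068 CPM in iASPP KO and 1127, 368 and 1057 CPM in iASPP WT, and none passed between conditions. The 5 endothelial markers, led by *Pecam1*, summed to between 3.02 and 13.0 CPM. The fibroblast sum was thus highest and the summed level of the defence genes lowest in batch 3, and the melanocyte sum was lowest in batch 2. Their part in the batch differences of the defence genes was not tested.

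**Figure D4:**
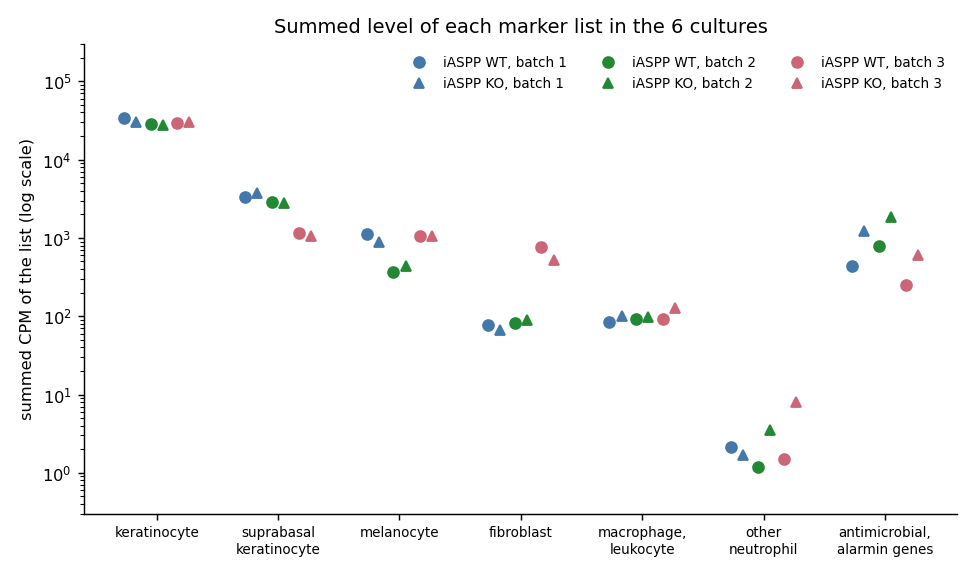
Summed CPM of each marker list (vertical axis, log scale) in the 6 cultures, with circles for iASPP WT, triangles for iASPP KO and a colour for each batch. Other neutrophil markers, drawn without *S100a8*, *S100a9* and *Camp*, stay at or below 8.07 CPM, and the fibroblast sums of batch 3 lie above those of batches 1 and 2.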

How the data were processed

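Reads of 42 nt from 6 libraries of ribosome-depleted RNA were used. Per the file headers and the submitters' processing notes, the authors trimmed adapters with cutadapt 2.10, aligned to mm10 (GRCm38) with STAR 2.7.3, and deposited raw counts per gene name from featureCounts 2.0.0, made on exons, by strand, with a GENCODE annotation. A deposited table of the authors' DESeq2 comparison (mean counts, log2 fold changes, p-values) was not used.

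The fit used edgeR 4.0.16 (R 4.3.3), with genes kept by filterByExpr on condition, TMM factors, glmQLFit on batch and condition, and Benjamini-Hochberg adjustment at a threshold of 0.05. The common dispersion was 0.0627. The SE is the absolute log2 fold change divided by the square root of F, and 95% intervals use 10.2 degrees of freedom. Log2 CPM for profiles had a prior count of 2. Totals ran from 20202517 to 25157117 counts. The intervals of within-batch ratios and the floors cover counting error only, and PCR copies were not told apart. The 95% intervals of the fit also include spread between cultures. The labels name the batch of each culture, and deviations from the condition means correlated at 0.480, 0.614 and 0.711 within batches over 10307 genes with at least 50 counts in every library, and at −0.634 to 0.327 between the conditions of different batches. Libraries of one condition differed far beyond sampling noise, with a chi-square per gene of 35.4 to 147. Whether batches were separate animals is not given in the sources used here.

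The members and lists were chosen with earlier results of these data known. Named genes were the 10 members, the genes of each other list that passed (up to 6 by smallest p) and its most abundant gene, marker list sums, *Ppp1r13l* and the 4 nearest profiles of *S100a8* and *Slpi*. *Tlr4*, *Saa3*, *Defb3*, *Cebpb* and genes at 0 were named beside this rule. Shared read-length stretches were counted for the longest transcript of each gene in GENCODE vM21 transcripts of GRCm38. Alternatives were no batch term, DESeq2 1.42.0, its size factors, upper-quartile scaling, other count filters, robust dispersion and each batch or library left out. Steps were tested on simulated data. Python 3.11.15, pandas 2.3.3, numpy 2.4.6, scipy 1.17.1 and matplotlib 3.10.9 were used.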

Additional observations from a re-analysis of the deposited data

How the results depend on the processing

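Replicate numbers are batches, so the fit without the replicate block drops the pairing: it called 0 genes and 0 of the defence genes between conditions, and the cause was not tested further. The block changed the calls of all 6 genes that passed, while their log2 fold changes stayed about as large without it. In every other alternative run on both conditions, *S100a8*, *S100a9*, *S100a7a*, *Defb14* and *Slpi* passed as higher in iASPP KO. Without a filter beyond 1 count, 1115 genes passed between conditions, and with a batch left out 291 to 1455. For batch 2 against batch 1, 182 genes passed with DESeq2 and 368 without the filter, and 29 to 681 with a library left out. The defence genes among them numbered 4 with DESeq2, 4 with upper-quartile scaling, 4 with at least 10 counts in every library, 5 without the filter, and 0 to 5 with a library left out. Batch 3 against batch 1 gave 856 to 2935 genes and batch 3 against batch 2 gave 1149 to 3257 with a library left out. The cause of these changes was not tested. The log2 fold change of *Defb1*, near 0, was −8.0e-05 with upper-quartile scaling and −0.20 to 0.34 with a batch left out. That of *Lcn2* was −0.14 to 0.69 with a batch left out, and DESeq2 and the filter of 10 counts gave it no adjusted p. Where a library is left out of a batch, the lone culture is assumed to vary like the others.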
